A study of Mus musculus with 76 samples.

Results

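The Serinc family comprises 5 genes in the mouse, Serinc1 to Serinc5, and all 5 were present among the 56923 gene IDs of the count files. The members were chosen by name. Serinc5 set the question because its RNA count at E11.5 separated the genotypes, so that contrast, and every other one that uses the E11.5 RNA libraries, is described for Serinc5 without a test, and the comparison of interest was whether its 4 paralogs moved with it. Diencephalon, the embryonic forebrain region that forms the thalamus and hypothalamus, was collected from C57BL/6J mouse embryos of the stages E11.5 and E17.5 (embryonic days). Wild type embryos came from homozygous wild type crosses. The hs754-humanized embryos came from homozygous crosses of the edited line, in which human sequence containing the enhancer hs754 replaced its mouse orthologue on chromosome 13, and the founders had been backcrossed to C57BL/6J. The labels name no other allele and no treatment, but wild type and humanized samples may differ in copy number at loci of chromosome 19 that vary among C57BL/6 mice, as the methods note. Each genotype and stage had 4 RNA-seq replicates (16 samples). ChIP-seq of the histone modifications H3K27ac, H3K4me3 and H3K27me3 had 2 replicates of each genotype at the earlier stage and 3 at the later one. The DNA-binding protein CTCF was profiled in 3 replicates of each genotype at E17.5, which gave 36 peak lists in all. Each replicate was a pool of 6 (E11.5) or 3 (E17.5) embryos from a single litter, so the spread between replicates is a spread between litters.

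Serinc proteins are multipass membrane proteins. They were named for a proposed role in incorporating serine into phosphatidylserine and sphingolipids, lipids in which brain membranes are rich, and members of the family have since been described as lipid scramblases, which move phospholipids between the leaflets of a membrane. Serinc3 and Serinc5 are best known as restriction factors that are incorporated into retroviral particles and lower their infectivity. In the nervous system Serinc5 is known from the oligodendrocyte lineage and myelin. H3K4me3 and H3K27ac mark active promoters, H3K27ac also marks active enhancers, and H3K27me3 is deposited by Polycomb complexes over repressed genes.

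The 5 genes lie on 4 chromosomes of mm39. Serinc1 (ENSMUSG00000019877) spans chr10:57391851-57408651 on the minus strand, Serinc2 (ENSMUSG00000023232) chr4:130147280-130172998 on the minus strand and Serinc3 (ENSMUSG00000017707) chr2:163444008-163487086 on the minus strand. For Serinc4 (ENSMUSG00000046110) the basic transcripts of GENCODE span chr2:121281658-121287499 on the minus strand, while its gene record begins at 121269540. Serinc5 (ENSMUSG00000021703) spans chr13:92747569-92848613 on the plus strand, and at 101.045 kb it is the longest member and the only one on the chromosome that carries hs754. The 250 bases upstream of the canonical start are shown for 3 members that differed in RNA behaviour, the genotype-separated Serinc5, Serinc2, which decreased between the stages, and Serinc1, which increased most. Sequences are from the GRCm39 genome of RefSeq, read 5′ to 3′ on the strand of the gene, with each GC box (GGGCGG or its reverse complement) in capitals.
Serinc5, chr13:92747319-92747568, plus strand: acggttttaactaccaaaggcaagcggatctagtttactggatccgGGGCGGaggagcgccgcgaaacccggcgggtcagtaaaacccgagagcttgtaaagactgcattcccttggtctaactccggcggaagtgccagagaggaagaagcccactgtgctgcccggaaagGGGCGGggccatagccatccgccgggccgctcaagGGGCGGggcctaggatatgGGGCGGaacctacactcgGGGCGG
Serinc2, chr4:130169380-130169629, minus strand: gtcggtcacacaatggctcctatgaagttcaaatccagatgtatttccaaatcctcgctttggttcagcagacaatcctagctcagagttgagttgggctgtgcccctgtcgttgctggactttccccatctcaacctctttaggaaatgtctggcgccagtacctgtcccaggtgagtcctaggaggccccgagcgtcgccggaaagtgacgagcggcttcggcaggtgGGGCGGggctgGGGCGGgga
Serinc1, chr10:57408652-57408901, minus strand: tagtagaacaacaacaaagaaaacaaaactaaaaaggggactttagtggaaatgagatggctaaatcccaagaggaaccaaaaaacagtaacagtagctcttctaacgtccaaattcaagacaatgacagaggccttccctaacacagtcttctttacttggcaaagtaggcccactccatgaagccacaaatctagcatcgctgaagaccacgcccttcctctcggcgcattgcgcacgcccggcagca

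The Serinc5 sequence held 5 GC boxes, a count reached by 1.86% of 21603 promoter windows of the same length, while 36.6% of those windows held at least 1. Serinc2 and Serinc4 held 2 each, Serinc3 held 1 and Serinc1 held none. The G+C content was 62.4% for Serinc5, 62% for Serinc4, 57.6% for Serinc2, 54% for Serinc3 and 46% for Serinc1, beside a median of 53.2% over all windows. The number of CpG dinucleotides followed the same order, with 21 in Serinc5, 20 in Serinc4, 13 in Serinc2, 12 in Serinc3 and 8 in Serinc1 (median 8). Only Serinc3 held a CCAAT box (CCAAT, present in 36.3% of windows). None of the 5 held TATAAA (11.9% of windows) or TGACGTCA (1.71%), both strands being searched for every motif.

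The RNA libraries held 16414369 to 24272569 reads counted on genes. Wild type replicate 1 at E17.5 stood apart. Its median absolute log2 deviation from the other replicates of its group was 0.727 over 20234 genes, against 0.132 to 0.260 in the other 15 libraries. Several fold changes that rest on it are also given without it. Most other values that use it are given only with it. Among these are group means, marker sums, family shares, stage changes of Serinc4 and of the lipid lists, pattern distances and the interaction. This library was the highest of its own group of 4 for 10 of the 12 marker lists, all but choroid plexus and midbrain. Its endothelial markers summed to 351 CPM (read counts scaled by library size), where the group's median was 202 and its lowest 187, and its neural progenitor markers to 777 CPM, where these were 529.7 and 467. The diencephalon markers (8 of 8 measured) summed to 875 to 1809.7 CPM across all libraries. Summed levels of all 12 marker lists overlapped between the genotypes at both stages.

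The 5 genes differed widely in level, and their order was nearly the same in every group. Counts were normalised by the trimmed mean of M values (TMM) to CPM, and divided by the length of the merged exons (2.924, 3.794, 5.152, 2.788 and 5.993 kb for Serinc1 to Serinc5) wherever genes were compared with each other. In wild type at E11.5, Serinc1 was at 85.9 ± 19.9 CPM per kb (SD, n = 4), Serinc3 at 27.4 ± 1.75, Serinc5 at 6.54 ± 1.15, Serinc2 at 4.28 ± 0.659 and Serinc4 at 0.292 ± 0.0378. No pair of neighbours in this order overlapped between replicates. In humanized tissue at E11.5 the order of Serinc5 and Serinc2 was exchanged, with Serinc2 at 5.03 ± 0.806 and Serinc5 at 2.37 ± 1.25 CPM per kb, and these values also did not overlap. This exchange rests on the length used. By the longest transcript instead (1.881 and 5.554 kb), wild type Serinc2 at E11.5 was at 8.64 ± 1.33 CPM per kb. Wild type Serinc5 was then at 7.05 ± 1.24, with overlapping replicates, so Serinc2 already had the higher mean in wild type. At E17.5 Serinc1 reached 222 ± 63.8 CPM per kb in wild type and 258 ± 18.2 in humanized tissue. The E17.5 order was Serinc1, Serinc3, Serinc5, Serinc2 and Serinc4 in both genotypes, with Serinc5 at 9.65 ± 1.27 (wild type) and 4.32 ± 1.35 (humanized) CPM per kb. At E11.5, Serinc1 supplied 68.4% ± 4.97 (SD, n = 4) of the summed family level in wild type and 64.1% ± 4.71 in humanized tissue. Its share at E17.5 was 82.7% ± 3.33 and 86.6% ± 0.817. Serinc5 supplied 5.32% ± 0.938 (wild type) and 2.51% ± 1.44 (humanized) of the E11.5 sum, and 3.75% ± 0.66 and 1.46% ± 0.493 of the E17.5 sum.

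**Figure D1:**
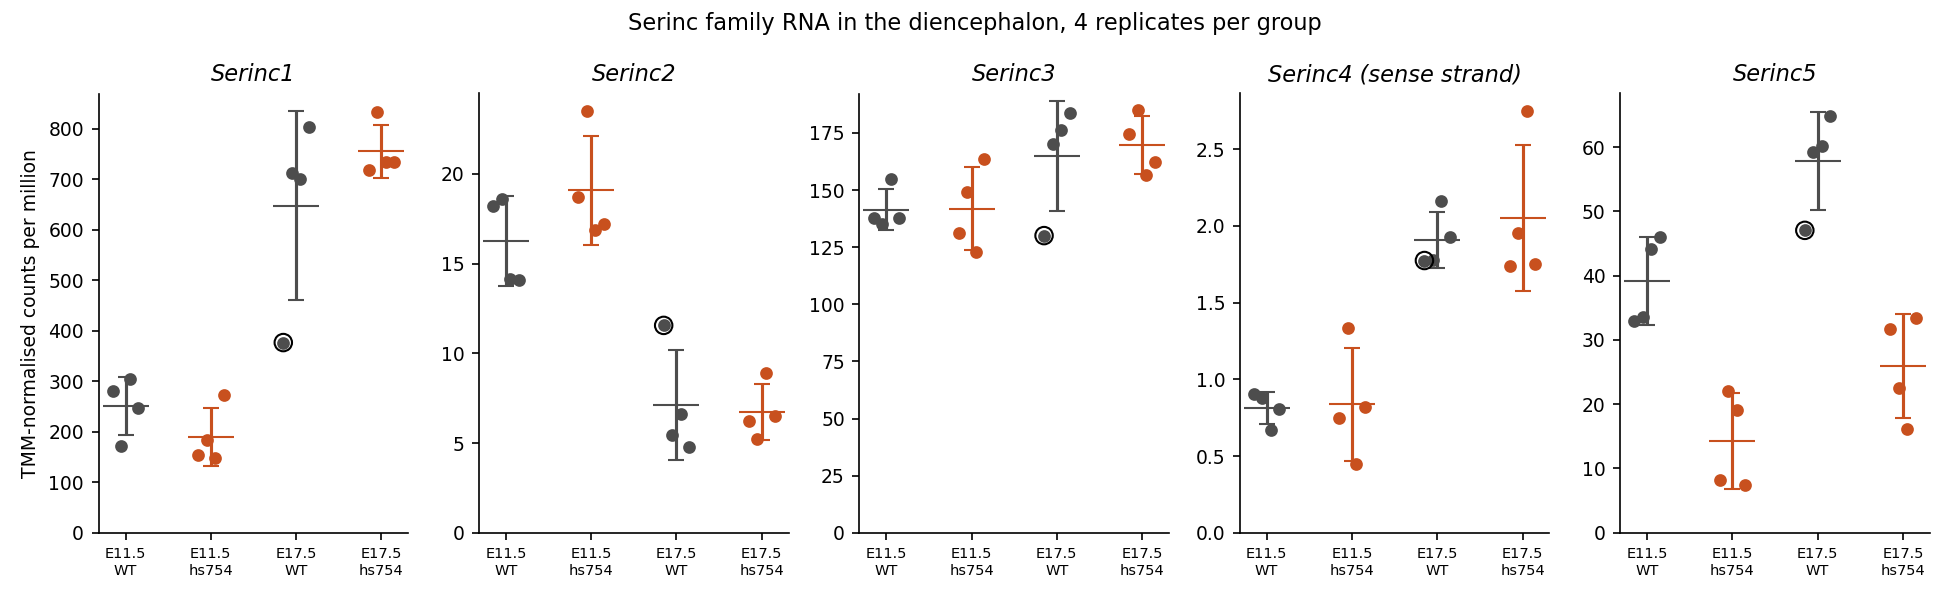
TMM-normalised CPM of the 5 Serinc genes (y axis, linear, starting at 0) in each replicate of the 4 groups (x axis; WT, wild type; hs754, humanized; Serinc4 from the sense strand only); bars are mean ± SD, n = 4, and the ring marks wild type replicate 1 at E17.5. The humanized points of Serinc5 lie below all wild type points at both stages, at 7.46 to 22.1 against 33.0 to 46.0 at E11.5 and 16.1 to 33.4 against 47.0 to 64.9 at E17.5, and the points of the other 4 genes overlap between genotypes.

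Serinc5 RNA was lower in humanized than in wild type diencephalon in every replicate at both stages. At E11.5 it was at 33.0, 33.5, 44.2 and 46.0 CPM in wild type replicates 1 to 4 and at 8.23, 22.1, 19.0 and 7.46 CPM in humanized replicates 1 to 4. The lowest wild type litter lay above the highest humanized litter, and the humanized litters themselves fell into a lower and a higher pair. The raw counts behind these values were 632 to 1135 in wild type and 169 to 493 in humanized tissue. The group means were 39.2 ± 6.88 and 14.2 ± 7.46 CPM, a 2.76-fold lower humanized level and a fitted log2 fold change of -1.49 ± 0.33 (SE). This contrast chose the gene and was not tested. Of 17816 genes, 0.892% were lower in every humanized replicate at E11.5.

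At E17.5 Serinc5 was at 47.0, 59.2, 60.1 and 64.9 CPM in wild type replicates 1 to 4 and at 31.7, 22.4, 16.1 and 33.4 CPM in humanized replicates 1 to 4. The groups again did not overlap, and 0.73% of 18763 genes were lower in every humanized replicate. The means were 57.8 ± 7.59 and 25.9 ± 8.10 CPM, a 2.23-fold lower humanized level and a log2 fold change of -1.16 ± 0.24 (SE). The unadjusted p of 5.4e-04 did not pass adjustment over all genes (adjusted p = 0.808, edgeR quasi-likelihood test with Benjamini-Hochberg adjustment). In that comparison 0 genes (0%) passed an adjusted p of 0.05, and 207 (1.1%) had an unadjusted p under 0.05. DESeq2 called 1 gene (0.00268%), which was not Serinc5 (adjusted p = 0.116). Without wild type replicate 1 the Serinc5 log2 fold change was -1.25 (adjusted p = 0.326, edgeR). In bulk tissue, fewer cells expressing Serinc5 and less Serinc5 RNA per cell cannot be told apart.

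Because Serinc5 is known from oligodendrocytes, the 9 markers of that lineage were read beside it. Their summed level was 133 to 180 CPM in wild type and 139 to 177 CPM in humanized tissue at E11.5, and 289 to 385 and 273 to 308 CPM at E17.5. The genotypes overlapped at both stages, with ratios of the mean sums of 1.01 and 0.895. No marker of the list was at 0 in all replicates of a group. Sox10 was the 1 marker under 1 CPM in all humanized E11.5 libraries, at 0.164 to 0.776 CPM. In wild type at E11.5 it was at 0 to 1.01 CPM. The E11.5 sum was thus carried by other markers, among them Pdgfra, at 46.1 to 54.5 CPM in wild type. Red blood cell markers (5 genes) summed to 1635 to 3569 CPM in wild type and 3040 to 5258 CPM in humanized tissue at E11.5, a ratio of 1.64 with overlapping groups, and their part in the Serinc5 difference was not tested.

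None of the 4 paralogs passed the test between genotypes at either stage. In each genotype comparison 0 of the 4 had an adjusted p under 0.05 by edgeR or DESeq2, beside 0% of all genes by edgeR, and 0 had an unadjusted p under 0.05. At E11.5, 1058 genes (5.94%) had an unadjusted p under 0.05 by edgeR, and DESeq2 called 2 genes (0.00581%). All 4 paralogs overlapped between genotypes, as did nearly all genes. Of all genes, 1.61% (E11.5) and 0.48% (E17.5) were higher in every humanized replicate, and 0.892% and 0.73% were lower.

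Serinc1, the most abundant member, was at 281, 171, 305 and 247 CPM in wild type and at 153, 184, 149 and 273 CPM in humanized replicates 1 to 4 at E11.5. Humanized replicates 1 and 3 lay below the wild type range and replicates 2 and 4 inside it. The log2 fold change was -0.43 ± 0.22 (adjusted p = 0.577, edgeR). At E17.5 Serinc1 was at 377, 713, 699.9 and 803 CPM in wild type and at 718, 834, 734 and 735 CPM in humanized tissue, which gave 0.22 ± 0.23 (adjusted p = 0.808, edgeR). The low wild type value was replicate 1, and without it the log2 fold change was 0.03. The fitted Serinc1 differences had opposite signs at the 2 stages, but the E17.5 one rested largely on wild type replicate 1. Neither difference exceeded the spread between litters.

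Serinc3, which shares the antiretroviral activity of Serinc5, was at 138, 135, 155 and 138 CPM in wild type and at 131, 149, 123 and 164 CPM in humanized tissue at E11.5. The log2 fold change was -0.02 ± 0.11 (adjusted p = 0.937). At E17.5 it was at 130.1, 170.0, 176 and 184 CPM in wild type and at 174, 185, 157 and 162 CPM in humanized tissue, a log2 fold change of 0.04 ± 0.17 (adjusted p = 0.935). Its genotype means thus lay closest together of the 5 genes.

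Serinc2 was at 18.2, 18.6, 14.1 and 14.1 CPM in wild type and at 18.7, 23.5, 16.9 and 17.2 CPM in humanized tissue at E11.5, with a log2 difference of 0.21 ± 0.15 (adjusted p = 0.581). At E17.5 its values were 11.6, 5.44, 6.62 and 4.81 CPM in wild type and 6.24, 5.22, 8.88 and 6.5 CPM in humanized tissue, a log2 fold change of -0.09 ± 0.30 (adjusted p = 0.907). Wild type replicate 1 was again the far value, and without it the log2 fold change was 0.25.

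Serinc4 could be read only from the sense strand. On the opposite strand, 45.2% of its exonic bases overlap exons of Hypk and 45.6% overlap exons of Serf2, and the unstranded counts of Serinc4 were 1 to 8 per library. Sense strand counts were 9 to 51, against 450 to 1605 counts on the opposite strand. From the sense strand Serinc4 was at 0.903, 0.875, 0.667 and 0.806 CPM in wild type and at 0.748, 1.33, 0.446 and 0.818 CPM in humanized tissue at E11.5 (log2 fold change 0.05 ± 0.33, adjusted p = 0.944). At E17.5 it was at 1.77, 1.77, 2.16 and 1.93 CPM in wild type and at 1.74, 1.95, 2.75 and 1.75 CPM in humanized tissue (log2 fold change 0.11 ± 0.27, adjusted p = 0.87). At these counts the SE was 0.27 to 0.33, so differences of that size, and larger ones, could have been missed.

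**Figure D2:**
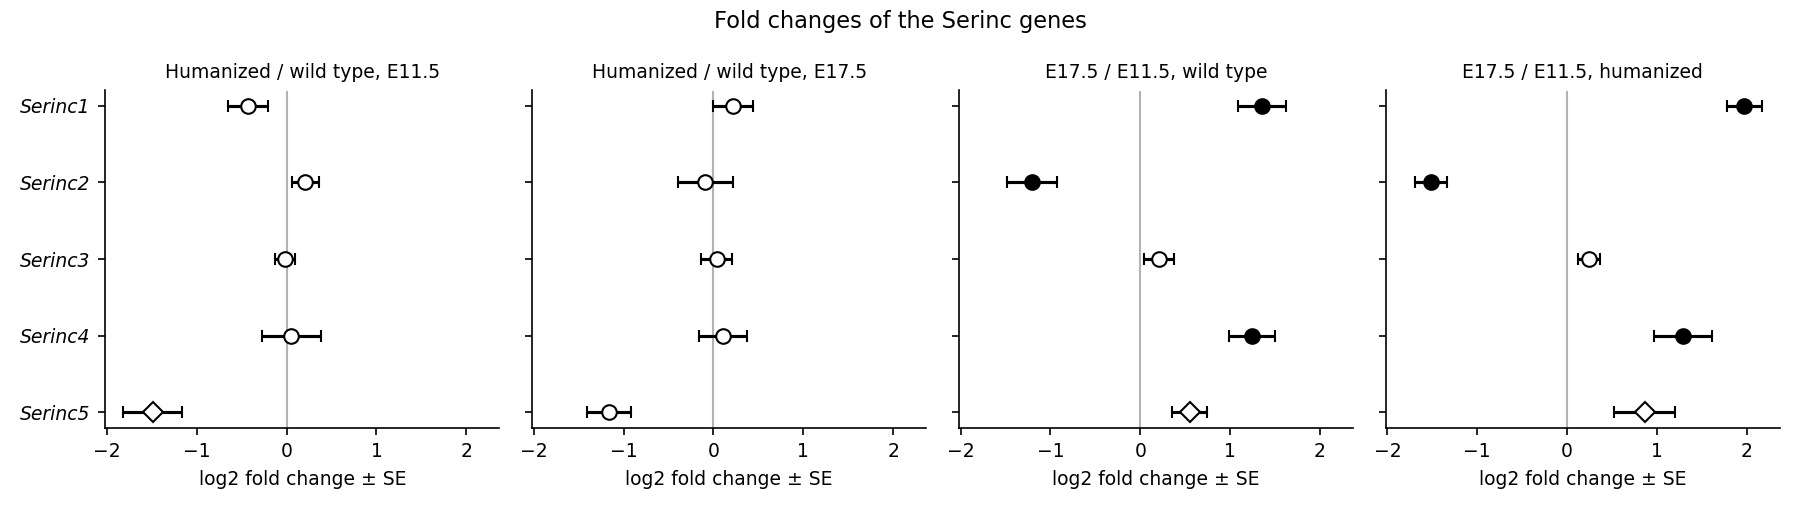
Fitted log2 fold changes ± SE (x axis) of the 5 Serinc genes (y axis) for humanized over wild type at E11.5 and E17.5 and for E17.5 over E11.5 in each genotype; filled circles had an adjusted p under 0.05 (edgeR), open circles did not, and diamonds mark the untested Serinc5 values of contrasts that use E11.5 libraries. Serinc5 lies at -1.49 and -1.16 between genotypes while the other 4 lie between -0.43 and 0.22, and between stages Serinc1 and Serinc4 lie above 0 and Serinc2 below it in both genotypes.

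Of the 4 paralogs, 3 changed between E11.5 and E17.5 in each genotype. Serinc1 and Serinc4 increased, Serinc2 decreased and Serinc3 did not pass the test. In wild type 55.7% of 18583 genes passed it (29% higher and 26.7% lower) and in humanized tissue 77.7% of 18781 genes (38.2% higher and 39.5% lower), so that 3 of 4 is near the share of all genes and is no result about the family. DESeq2 called 43.6% and 57.5% of genes. These stage comparisons share their samples with the genotype comparisons.

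Serinc1 increased 2.58-fold in wild type (log2 fold change 1.35 ± 0.27, adjusted p = 0.00157) and 3.98-fold in humanized tissue (1.98 ± 0.19, adjusted p = 1.5e-06). Serinc4 increased 2.35-fold (1.25 ± 0.25, adjusted p = 0.00177) and 2.45-fold (1.29 ± 0.32, adjusted p = 0.00324). Serinc2 decreased 2.29-fold (-1.20 ± 0.28, adjusted p = 0.00403) and 2.84-fold (-1.52 ± 0.17, adjusted p = 6.4e-06). For all 3 the E17.5 and E11.5 replicates did not overlap in either genotype. In wild type, 25.2% of genes were higher and 25.1% lower in every E17.5 replicate, and in humanized tissue 35.1% and 36.7%. Serinc3 differed by 0.21 ± 0.17 (adjusted p = 0.306) in wild type and 0.25 ± 0.12 (adjusted p = 0.0876) in humanized tissue, with overlapping replicates in both. Without wild type replicate 1 at E17.5, Serinc3 passed the test in wild type at 0.30 (adjusted p = 0.0226), beside 13994 genes called in place of 10356. The log2 fold changes of Serinc1 and Serinc2 were then 1.54 and -1.55, and that of Serinc5 was 0.63.

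The Serinc5 level at E17.5 was 1.48 times that at E11.5 in wild type (log2 fold change 0.55 ± 0.19) and 1.82 times in humanized tissue (0.86 ± 0.34). The E11.5 libraries that chose the gene enter both values, which were not tested. The wild type replicates did not overlap between the stages, and the humanized ones did, at 7.46 to 22.1 and 16.1 to 33.4 CPM. With a replicate left out, the log2 fold change was 0.44 to 0.63 in wild type and 0.63 to 1.13 in humanized tissue. The stage change did not pass the test of a difference between genotypes for any paralog. The interaction, the difference of the stage change in humanized minus that in wild type, was 0.62 ± 0.33 on the log2 scale for Serinc1 (adjusted p = 0.462) and -0.31 ± 0.34 for Serinc2 (adjusted p = 0.613). It was 0.04 ± 0.19 for Serinc3 (adjusted p = 0.927) and 0.05 ± 0.41 for Serinc4 (adjusted p = 0.951). For Serinc5 it was 0.31 ± 0.43, given without a test. No gene passed the interaction test by edgeR or DESeq2, and 1610 (7.96%) had an unadjusted p under 0.05 by edgeR.

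Genes that supply or move the lipids linked to the family were read from 4 lists. Between the genotypes, where 0% of all genes were called at either stage, none of these was called, of 11 genes of serine synthesis and transport, 18 (E11.5) or 20 (E17.5) of sphingolipid synthesis, 3 of phosphatidylserine synthesis and 14 lipid scramblases and flippases. The lowest p values at E11.5 belonged to Phgdh, the first enzyme of serine synthesis (log2 fold change 0.33 ± 0.13), the ceramide synthase Cers4 (-0.34 ± 0.13), the phosphatidylserine synthase Ptdss2 (0.29 ± 0.14) and the XK-related gene Xkr4 (-0.91 ± 0.38), all with an adjusted p of 0.577. At E17.5 they belonged to the neutral amino acid transporter Slc1a5 (-0.52 ± 0.20), the ceramide synthase Cers1 (-0.55 ± 0.29), the phosphatidylserine synthase Ptdss1 (-0.30 ± 0.20) and the autophagy scramblase Atg9a (-0.49 ± 0.30), all at 0.808.

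Between the stages, 55.7% of all genes passed the test in wild type (29% higher and 26.7% lower) and 77.7% in humanized tissue (38.2% and 39.5%). The 11 serine genes all passed it in both genotypes, 4 upwards and 7 downwards, with list medians of -0.67 in wild type and -1.11 in humanized tissue beside -0.01 and -0.04 over all genes tested. Shmt1, which interconverts serine and glycine, decreased from 40.2 ± 4.99 to 4.82 ± 1.21 CPM in wild type (log2 fold change -3.07) and from 44.1 ± 7.23 to 5.14 ± 0.955 CPM in humanized tissue (-3.11). Slc1a5 decreased by 2.01 and 2.74 on the log2 scale, and Phgdh by 1.96 and 2.88, in wild type and humanized tissue in that order. Slc7a10, a small neutral amino acid transporter of astrocytes, increased by 1.97 and 1.56. Of 18 sphingolipid genes, 8 increased and 2 decreased in wild type and 9 and 4 in humanized tissue, together near the shares of all genes. Cers4 increased by 2.26 and 2.83, Cers1 by 2.02 and 1.52 and Cers6 by 1.5 and 2.04, while Ormdl2, of the family that restrains serine palmitoyltransferase, decreased by 1.77 and 2.04. Of 14 scramblases and flippases, 7 increased and 2 decreased in wild type and 8 and 3 in humanized tissue, again near those shares. The largest changes were those of Xkr4 (4.04 and 5.26) and the flippases Atp8a2 (2.19 and 2.73) and Atp11b (1.83 and 2.4). Of the 3 phosphatidylserine genes, Ptdss1 passed in wild type (0.52, adjusted p = 0.041) and Ptdss2 in humanized tissue (-0.77, adjusted p = 2.4e-04).

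The genes beside Serinc5 were read for the same genotype contrast, in which 0% of all genes were called at either stage. Within 500 kb, 8 of 12 protein-coding genes were tested in the E11.5 comparison and 10 in the E17.5 one, and 0 were called. Their log2 fold changes ran from -0.91 to 0.18 at E11.5 and from -0.41 to 0.43 at E17.5, and 0 had an unadjusted p under 0.05, beside 5.94% and 1.1% of all genes. With no gene called anywhere, this says nothing particular to the neighbours. The nearest tested gene at lower coordinates was Zfyve16, an endosomal FYVE domain gene, 80.193 kb away, with log2 fold changes of -0.19 ± 0.27 (adjusted p = 0.733) and 0.36 ± 0.38 (adjusted p = 0.808). The nearest at higher coordinates was Thbs4, a secreted thrombospondin, 39.485 kb away, with 0.18 ± 0.25 (adjusted p = 0.729) and -0.41 ± 0.42 (adjusted p = 0.808). Likewise 0 neighbours of the other 4 members were called between genotypes.

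The members also differed from each other in their pattern over the 16 RNA samples, measured as the root-mean-square difference of log2 CPM after centring each gene (20234 genes, all libraries sharing the same groups). The genes nearest to Serinc1 were Fut8 (0.0922), Clcn3 (0.107) and Sh3kbp1 (0.111), beside a median distance of 1.14. Serinc2 had Kmt5c (0.135), Mta2 (0.15) and Plxnb1 (0.168) nearest to it (median 0.952), and Serinc3 had Arl8b (0.0799), Dctn4 (0.0807) and Arl1 (0.0882; median 0.711). The nearest to Serinc5 were Gm16758 (0.66) and Hjv (0.674), beside a median of 1.15. The E11.5 contrast that chose Serinc5 enters its distances, which are given as a description. Serinc3 was at a distance of 0.888 from Serinc5, Serinc1 at 0.981 and Serinc2 at 1.45, and Serinc3, its nearest paralog, had rank 1826 among the genes ordered by distance from Serinc5. Serinc4 was not compared in this way, since its unstranded counts did not pass the count filter.

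Peaks at the gene starts were compared to see whether the marks of active promoters differed where the RNA did. The value used was the highest fold enrichment, as the peak caller MACS2 gave it, of any peak within 2 kb of the canonical start. Serinc2 needs this start. The 5′ end of its longest annotated span lies 3619 bp upstream, and around that point 0 of the lists held an H3K4me3 or H3K27ac peak. At the canonical starts, H3K4me3 and H3K27ac peaks were present in every replicate of both genotypes and stages for all 5 genes. Exons of Hypk and Serf2 overlap Serinc4 on the opposite strand, and which gene the peaks near the Serinc4 start belong to was not tested. The canonical start was adopted after the peaks were seen. With 3 replicates against 3 the exact permutation test cannot give a two-sided p below 0.1, and with 2 against 2 not below 0.333.

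At the Serinc5 start, H3K4me3 fold enrichment at E11.5 was 45.5 and 50.5 in wild type and 43.3 and 41.5 in humanized tissue. The humanized replicates lay below the wild type ones (ratio 0.883, p = 0.333, exact permutation test), as at 23.5% of 13392 starts. At E17.5 it was 68.1, 69.5 and 54.5 in wild type and 69.8, 54.4 and 51.5 in humanized tissue, with overlap (ratio 0.914, p = 0.6, exact permutation test). H3K27ac was 5.72 and 9.31 against 9.17 and 8.40 at E11.5 (ratio 1.17, p = 1, exact permutation test). At E17.5 it was 10.7, 10.8 and 16.2 against 8.85, 12.8 and 10.9 (ratio 0.863, p = 0.7, exact permutation test). The H3K27ac groups overlapped at both stages. The genotype ratios of RNA, 0.363 and 0.448, were thus accompanied by ratios between 0.863 and 1.17 for the promoter marks. Serinc5 and Serinc4 had the weakest H3K27ac of the family at their starts, at 3.87 to 16.2 over all lists, against 12.8 to 55.3 at the other 3. Their H3K4me3 lay among that of the others.

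**Figure D3:**
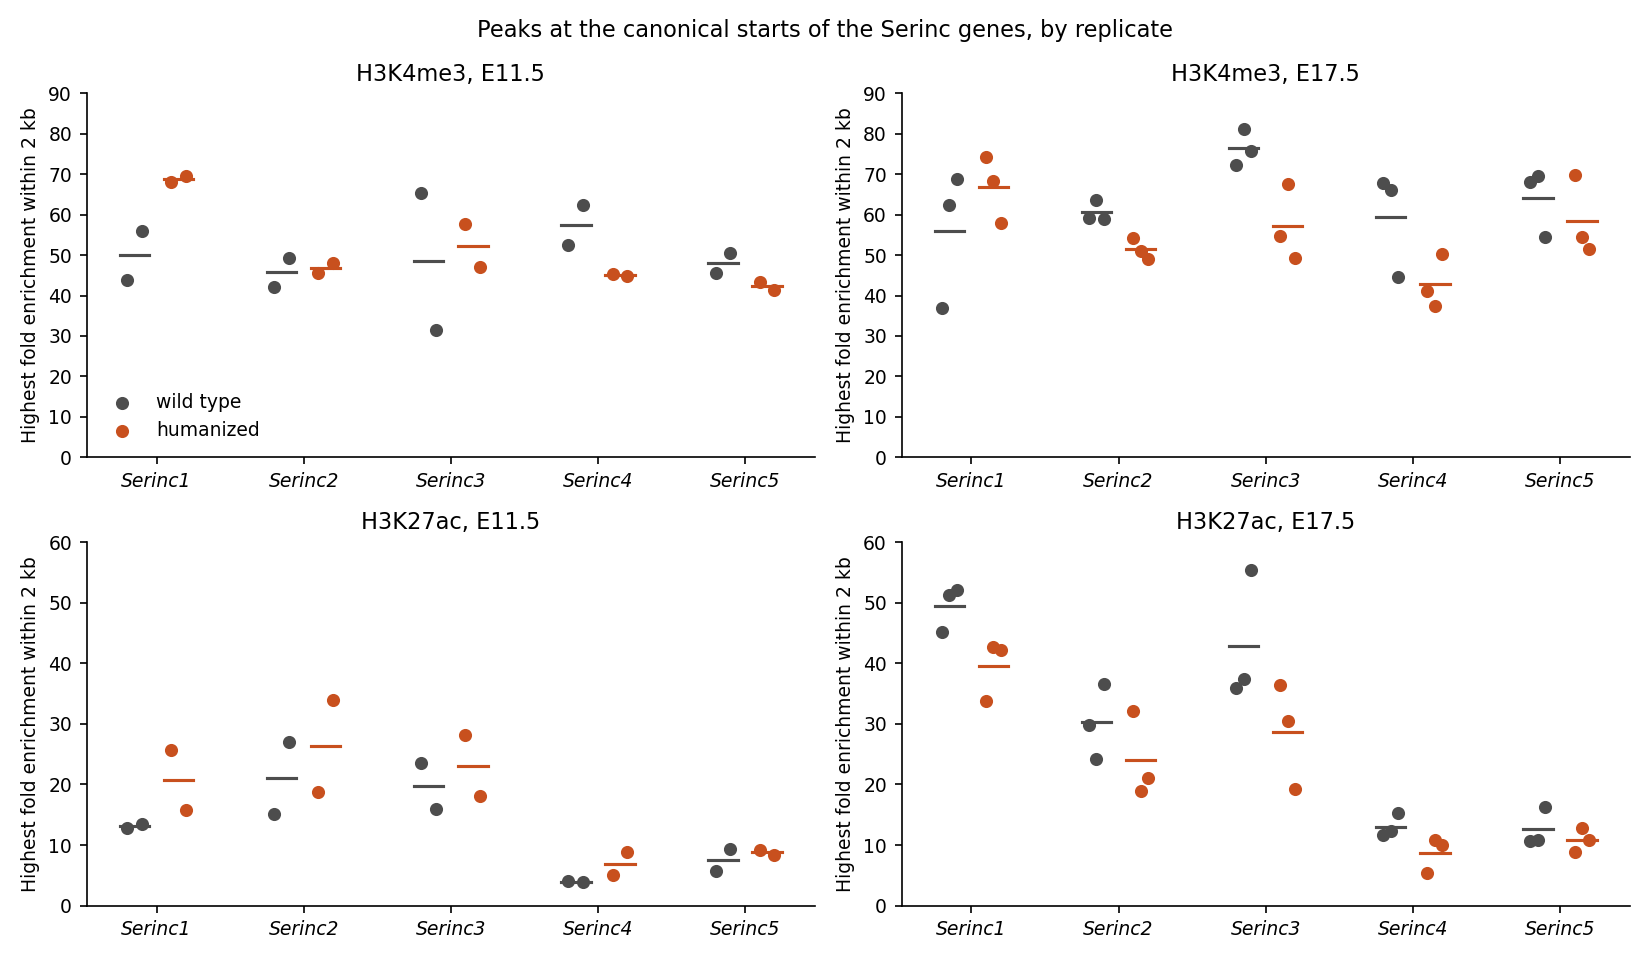
Highest fold enrichment of any H3K4me3 (top) or H3K27ac (bottom) peak within 2 kb of the canonical start (y axis, linear, starting at 0) of each Serinc gene (x axis); left panels show E11.5 and right panels E17.5, points are replicates, lines are means, grey is wild type and orange humanized. At Serinc5 the H3K27ac points of the genotypes overlap at both stages, and at E17.5 the Serinc1 and Serinc4 H3K27ac points of humanized tissue lie below those of wild type.

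At the paralog starts, some marks were separate between genotypes, as at many starts. At E11.5, H3K27ac was above wild type in both humanized replicates for Serinc1 (25.7 and 15.7 against 12.8 and 13.5, ratio 1.57) and Serinc4 (5.06 and 8.85 against 4.07 and 3.87, ratio 1.75), as at 37.7% of 9848 starts, whose median log2 ratio was 0.23. At E17.5 both lay below wild type in every replicate, Serinc1 at 33.8, 42.7 and 42.3 against 45.2, 51.2 and 52.1 (ratio 0.799) and Serinc4 at 5.36, 10.9 and 10.002 against 11.6, 12.3 and 15.2 (ratio 0.672; p = 0.1 for each, exact permutation test). This held at 14.5% of 11486 starts, with a median log2 ratio of -0.26. H3K27ac at Serinc2 and Serinc3 overlapped at both stages. H3K4me3 at E11.5 was above wild type at Serinc1 (ratio 1.38, as at 12.3% of starts) and below it at Serinc4 (0.787). At E17.5 it was below wild type at Serinc2 (54.2, 51.1 and 49.1 against 59.2, 63.5 and 59.0, ratio 0.849) and at Serinc3 (54.7, 67.6 and 49.2 against 72.2, 81.3 and 75.8, ratio 0.748), as at 8.14% of 13391 starts, p = 0.1 for each by the exact permutation test.

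Between the stages in wild type, H3K27ac at the Serinc1 start was 3.75 times as high at E17.5, at 49.5 ± 3.78 (n = 3) against 13.2 ± 0.503 (n = 2), beside a median ratio of 2.04 over 9853 starts. The ratio was 3.28 at Serinc4, 2.17 at Serinc3, 1.67 at Serinc5 and 1.44 at Serinc2. The E17.5 replicates lay above the E11.5 ones at 4 of the 5 starts, all but Serinc2, as at 78.4% of starts. In humanized tissue the ratios were 1.91 (Serinc1), 1.26 (Serinc4), 1.24 (Serinc3 and Serinc5) and 0.913 (Serinc2), beside a median of 1.47, and the replicates were separate at Serinc1, as at 46.6% of starts. The gene whose RNA decreased, Serinc2, had the lowest stage ratio of H3K27ac in both genotypes. H3K4me3 was higher in every E17.5 replicate at Serinc2 and Serinc5 in both genotypes and at Serinc3 in wild type, with ratios of 1.10 to 1.58, as at 34.5% (wild type) and 32.2% (humanized) of starts.

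At E11.5 Serinc2 carried the widest H3K27me3 peaks of the family, as coverage of its body shows. All 4 lists of that stage held a peak across its canonical start, within a region from -2.794 to 3.872 kb. The fold enrichment was 3.06 and 3.33 in wild type and 3.84 and 3.75 in humanized tissue (ratio 1.19, p = 0.333, exact permutation test), as at 31% of 4230 starts. Peaks covered 21.9% and 15.4% of the Serinc2 body in wild type and 23.7% and 24.2% in humanized tissue, every humanized replicate being higher, as in 41.5% of 4775 genes. At E17.5 2 of 3 lists of each genotype held a peak near the start, with fold enrichment of 2.46 to 2.93, and coverage of the body was 0% to 2.39%. Serinc3 and Serinc4 had no H3K27me3 peak within 2 kb of the start or over the body. Serinc1 had one within 2 kb upstream of its start at E17.5 in 2 of 3 lists of each genotype and none over its body. In wild type replicate 2, the list without one, a peak lay just beyond this limit, from -2.842 to -2.077 kb.

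H3K27me3 near the Serinc5 start was weak. At E11.5 a peak lay within 2 kb in 1 of 2 wild type (3.08) and 2 of 2 humanized lists (2.83 and 2.76). At E17.5 it did in 3 of 3 wild type lists (2.53, 2.43 and 2.72) and 0 of 3 humanized lists (p = 0.1, Fisher's exact test, the smallest possible). Humanized lists are in coordinates of the humanized genome, in which CTCF summits within 5 Mb of Serinc5 lay 385 to 392.5 bp further along than in wild type. The corresponding difference over the first 50 Mb of chromosome 13 was -2 to -1 bp. A humanized replicate 2 peak began at 2.008 kb from the start in those coordinates, nearer to the limit than this offset, so the count of 0 of 3 rests on the coordinates.

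Over the body of Serinc5, H3K27me3 at E17.5 covered less of the gene in humanized tissue. Peaks covered 22.3%, 12% and 12.4% of the gene in wild type (11, 8 and 8 peaks) and 7.45%, 6.65% and 3.75% in humanized tissue (7, 6 and 5 peaks). Every humanized replicate lay below every wild type replicate (ratio 0.383, p = 0.1, exact permutation test, the smallest possible). Of 4900 genes, 18.2% were separate in this direction, the median ratio was 0.865, and 2.22% had a lower ratio than Serinc5. The lists themselves differed in size, with 27452 to 43700 peaks in wild type and 19193 to 31592 in humanized tissue, and the part of that difference was not tested. Wild type replicate 1 had the longest list and the highest coverage, and without any 1 of the 6 replicates the ratio was 0.334 to 0.488.

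The wide H3K27me3 peaks lay in the 3′ part of the gene. The widest peak of the last region ran from 94.093 to 99.5, 95.173 to 99.126 and 94.34 to 98.761 kb from the start in wild type replicates 1 to 3. In the humanized lists the same region held only peaks of under 1 kb, between 97.779 and 99.92 kb. A region from 81.958 to 90.749 kb was marked in all 6 lists, and one from 76.829 to 80.555 kb in 3 wild type and 2 humanized lists. All of these peaks were weak, with fold enrichment of 2.19 to 3.44 and a highest -log10 q of 4.13. None was left at a -log10 q of 5 or more. At E11.5 the Serinc5 body held no H3K27me3 beyond the peak near the start.

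**Figure D4:**
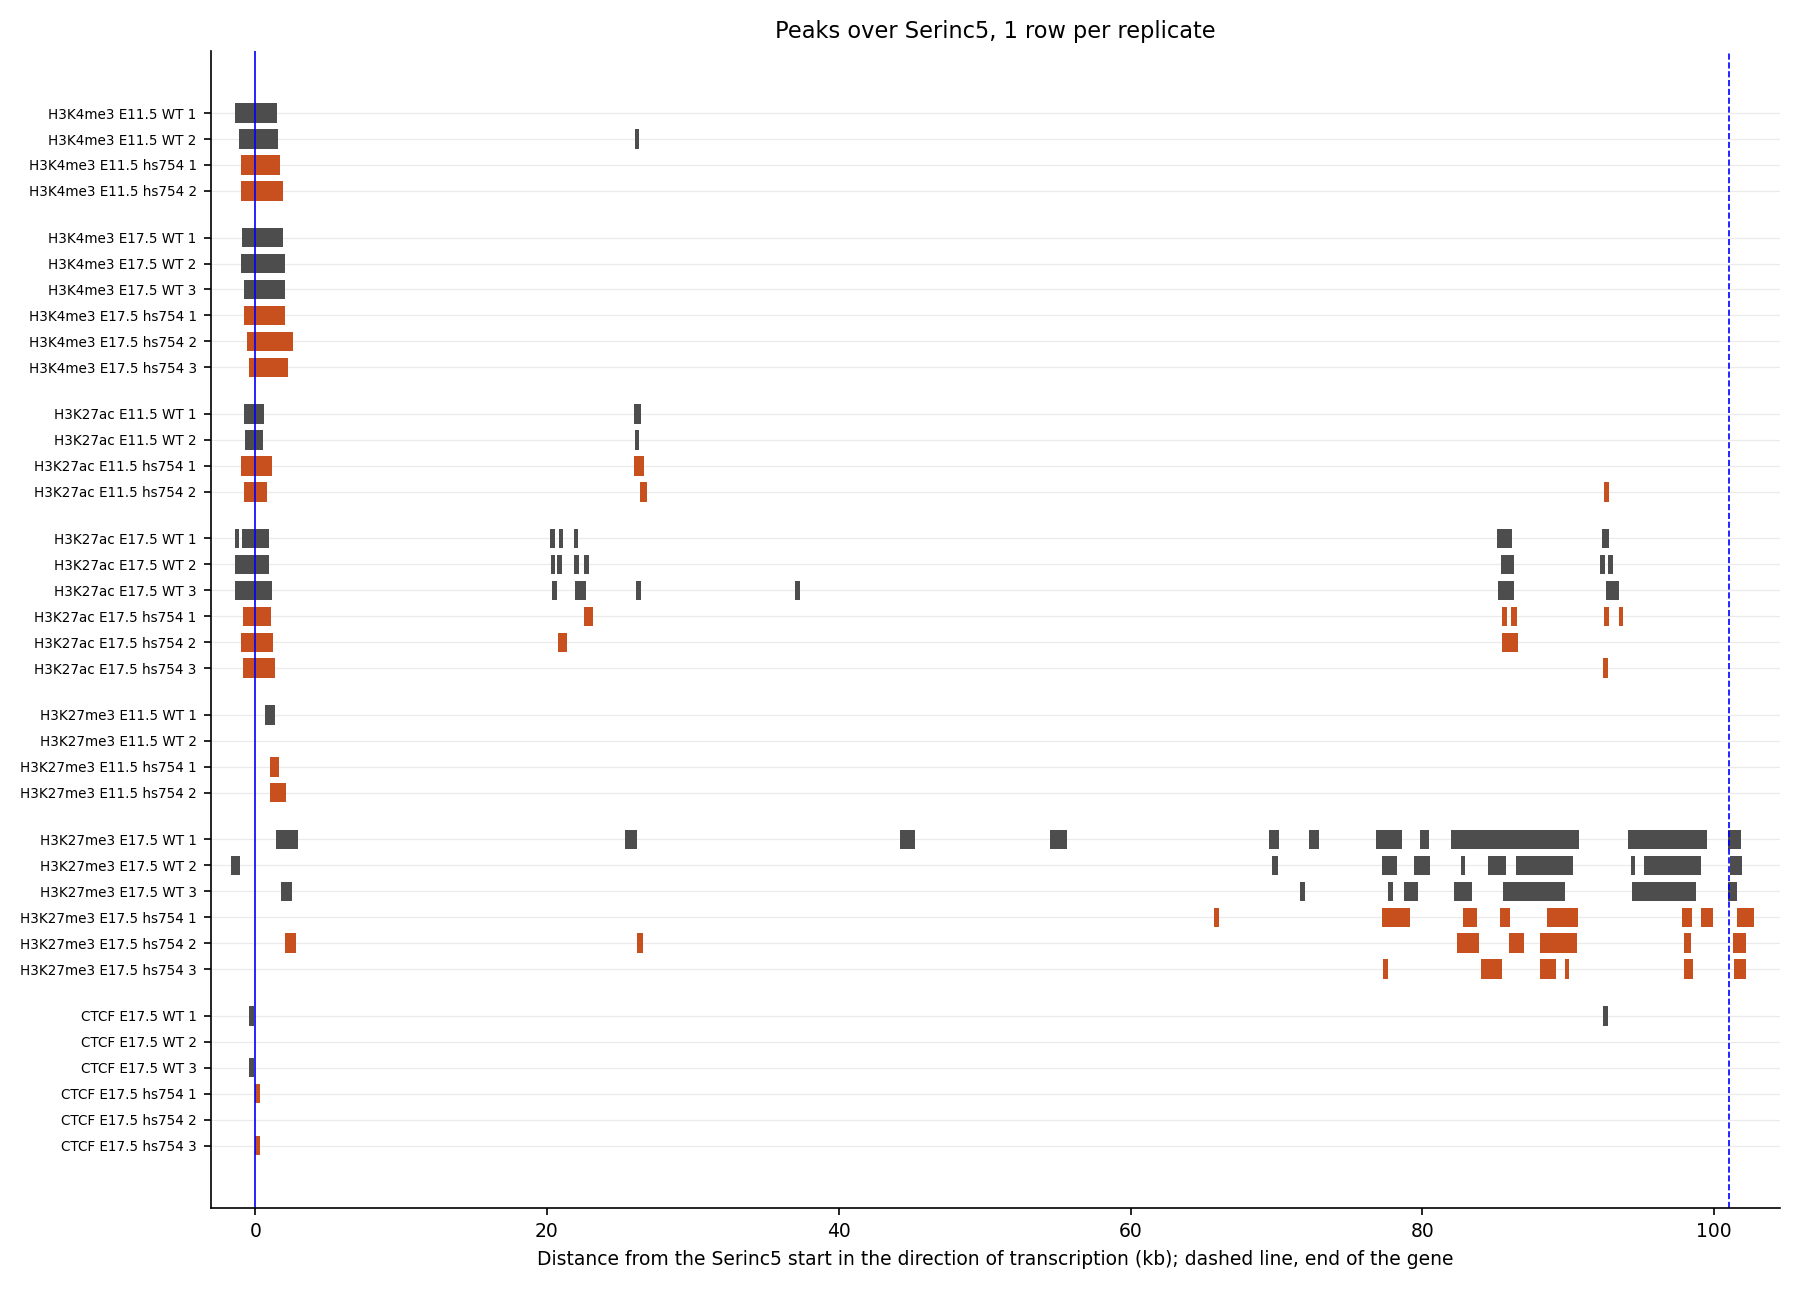
Peaks over Serinc5 by distance from its start in kb (x axis), 1 row per replicate and mark (y axis; WT and grey, wild type; hs754 and orange, humanized, in humanized coordinates as deposited); the solid line is the start and the dashed line the end of the gene. H3K4me3 and H3K27ac mark the start in every row, the E11.5 H3K27ac peak near 26 kb is in all 4 rows, and the E17.5 H3K27me3 blocks near 94 to 100 kb are wider in the 3 wild type rows.

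H3K27ac peaks inside Serinc5 differed in part in position between the stages. A peak at 25.98 to 26.861 kb was called in all 4 E11.5 lists, with mean fold enrichment of 5.76 in wild type and 5.86 in humanized tissue, and in 1 of 6 lists at E17.5. At E17.5 peaks appeared at 20.239 to 23.124, 85.087 to 86.556 and 92.175 to 93.682 kb, each in 3 of 3 wild type and 2 of 3 humanized lists. The last of these overlapped a peak of humanized replicate 2 at E11.5, from 92.477 to 92.744 kb with fold enrichment of 3.48. H3K27ac covered 3.20%, 3.48% and 4.75% of the gene in wild type and 2.90%, 2.89% and 1.69% in humanized tissue at E17.5, with every humanized replicate lower (ratio 0.654, p = 0.1, exact permutation test), as in 15.7% of 12466 genes. At E11.5 the order was opposite, at 1.06% and 0.797% against 1.83% and 1.57% (ratio 1.83, p = 0.333, exact permutation test), as in 23.2% of 10649 genes. With 50% of a peak required inside the gene this ratio was 4.40. This setting dropped the start peak from both wild type lists, where it ran from -0.743 to 0.594 and from -0.715 to 0.503 kb. It kept the start peak in both humanized lists, at -0.954 to 1.154 and -0.763 to 0.826 kb in the offset coordinates. H3K4me3 covered 1.91%, 2.02% and 2.00% against 2.04%, 2.60% and 2.23% at E17.5 (ratio 1.16, p = 0.1, exact permutation test), as in 1.12% of 13994 genes. Those genes lie outside chromosome 13, so the coordinate offset of Serinc5 does not enter that share. The coordinate offset equals 0.381% to 0.388% of the gene's length, larger than the H3K4me3 difference between the means, 1.98% and 2.29%. It moves the start peak further into the annotated gene in the humanized lists, and its part in the E11.5 H3K27ac difference, between means of 0.930% and 1.70%, was not tested.

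The other bodies carried fewer sites. Serinc2 had a pair of CTCF sites at 10.335 to 11.084 and 14.615 to 15.344 kb from its canonical start in all 6 lists, with mean fold enrichment of 27.2 and 17.46 in wild type and 23.0 and 14.9 in humanized tissue. Serinc3 had CTCF at its start in all 6 lists, at 14.9, 11.4 and 19.5 in wild type and 17.7, 8.88 and 9.64 in humanized tissue (ratio 0.791, p = 0.5, exact permutation test). It also had a cluster of H3K4me3, H3K27ac and CTCF near its 3′ end, between 41.41 and 43.602 kb from the start, in every list of these marks. Of the exonic bases of Serinc3, 7.47% overlap Ttpal, a gene on the opposite strand. CTCF lay near the Serinc5 start in 2 of 3 lists of each genotype, at 5.97 and 6.24 against 3.74 and 3.90, and within 2 kb of the starts of Serinc1, Serinc2 and Serinc4 in none. Neither Serinc1 nor the span of the basic Serinc4 transcripts held a CTCF peak. Beyond that span and inside the Serinc4 gene record, a CTCF peak lay between 8.274 and 8.857 kb from the start in all 6 lists.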

How the data were processed

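The members and gene lists were chosen with earlier results of these data known. RNA reads were aligned by the authors with STAR 2.7.9a to mm39 and deposited as raw counts per gene, unstranded and for each strand; reads assigned to no gene (48.1% to 58.4% of each library's reads, unmapped ones included) were left out of library sizes. Unstranded counts were used, and sense strand counts for Serinc4. Low counts were removed with filterByExpr, libraries were TMM normalised, and genes were tested with the quasi-likelihood test of edgeR 4.0.16 (R 4.3.3) with Benjamini-Hochberg adjustment, each comparison on its own groups and the interaction on all 16 samples. DESeq2 1.42.0 was the other tool. Library deviations used a pseudocount of 0.5 CPM and pattern distances one of 0.01. The tests were checked on simulated data.

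ChIP reads were aligned by the authors with Bowtie2 2.4.2, and peaks were called on each replicate with MACS2 2.2.7.1 at default settings after removal of multi-mapping and duplicate reads; settings for H3K27me3 are not given in the sources used here. Reads of humanized samples were mapped to a humanized mm39, and no coordinates were converted. The deposited peak lists hold fold enrichment over local background (a ratio), -log10 p and q values, and a score that was not used. The authors state that the H3K27ac antibody also binds acetylated H2B. Each list held 13850 to 78661 peaks, and the reads behind a peak are not counted in it, so precision rests on the replicates. Starts and bodies were taken from GENCODE M39, which matched 56236 of 56923 gene IDs, and a gene start counted as marked when a peak lay within 2 kb of it. Peak values were compared with exact two-sided permutation tests or Fisher's exact test. Chromosome 13 was left out of the start and gene body backgrounds, so their genes lack the coordinate offset that Serinc5 has in the humanized lists. Input libraries were not analysed here. Besides the family, the genes named were up to 3 called members of each lipid list with the largest change, the member with the lowest p between genotypes, the nearest tested gene on each side of Serinc5 and the 3 genes nearest in pattern to each member, of which 1 is not reported here. Alternatives covered the tool, size factors, the count filter, a replicate block, a fit of all samples, peak thresholds, windows and overlap, and each replicate left out. Canonical starts and the strand counts of Serinc4 were adopted after the data were seen.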

Additional observations from a re-analysis of the deposited data

Results flagged for a closer look

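In 2 groups a single library lay far from the other 3, of 20 groups tested, and chance marks about 1 in 20 groups in this way. Serinc1 in humanized tissue at E17.5 was at 834 CPM in replicate 2, where the other replicates were at 718 to 735. Serinc3 in wild type at E11.5 was at 155 CPM in replicate 3, where the others were at 135 to 138.

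H3K27ac at the starts of Serinc1 and Serinc4 lay on opposite sides of wild type at the 2 stages. At Serinc1 the E11.5 ratio of humanized over wild type was 1.57 and the E17.5 ratio 0.799. At Serinc4, whose exons overlap those of Hypk and Serf2, these ratios were 1.75 and 0.672, and which gene these peaks belong to was not tested. All replicates of a stage lay on the same side, and the difference between the stages was not tested. Over all starts the median log2 ratio was 0.23 and -0.26.

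Reads on the strand opposite to Serinc4, which the comparisons do not use, came to 16474 counts over the 16 libraries, against 447 on its own strand, so 97.4% of reads over its exons were opposite. Exons of Hypk and Serf2 lie there.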

How the results depend on the processing

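No change that passed a test reversed in direction under any alternative run. Differences that passed no test could change sign, as Serinc2 did between genotypes at E17.5 (log2 fold change -0.23 to 0.25). Of the results that answer a comparison, 251 values were classed as unchanged and 7 were not. Of the other values 392 were unchanged, 3 gained a call and 6 moved. For a tested gene, unchanged meant that its call was kept. For counts, coverage ratios, level ratios and untested fold changes it meant staying within a set margin. DESeq2 called 2 genes between genotypes at E11.5 and 1 at E17.5 where edgeR called 0. A fit of all 16 samples called 1 gene at E11.5. H3K27me3 starts marked in every list numbered 0 of 10 gene and stage pairs, 1 with the canonical start or the starts of all transcripts, and 0 to 2 with a replicate left out (2 without E11.5 wild type replicate 2). H3K27me3 bodies went from 4 to 0 at a -log10 q of at least 5, the peaks being weak. The replicate numbers share only a number, with same-number correlations of 0.0344 to 0.174 at E11.5 and 0.0897 to 0.584 at E17.5. With the replicate block, 9466 genes in place of 10356 were called between stages in wild type and 14454 in place of 14601 in humanized tissue, and 0 between genotypes. The block ended no call of a Serinc gene. Serinc3 was called between stages in wild type without E17.5 wild type replicate 1 (adjusted p = 0.0226, edgeR) and in humanized tissue with DESeq2 size factors (adjusted p = 0.0272) and without E11.5 humanized replicate 4 (0.0235). With replicates left out, stage calls ranged from 9147 to 13994 in wild type and 14217 to 15103 in humanized tissue. With 50% of a peak required in the gene, the Serinc5 H3K27ac coverage ratio at E11.5 was 4.40. That setting kept the start peak in the humanized lists only, whose coordinates are offset. Leave-one-out ratios of Serinc5 CTCF coverage were 1.22 to 2.94. The wild type CTCF peaks near the start ended upstream of it, at -0.093 and -0.054 kb. The humanized ones, in offset coordinates, ended inside the gene at 0.296 and 0.218 kb. No genotype comparison of peaks could reach p under 0.05.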
